A study of Caenorhabditis elegans with 2 samples.

Results

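Peaks of the tagged chromatin protein GEI-8 that were strong in only a single replicate are described here, as 2 sets. Each of 2 biological replicates has a relaxed list of 30000 peaks, and from each list the peaks with the highest deposited signal were kept, as many as the authors' thresholded (IDR) list holds. Members were chosen by that signal alone. Of the peaks kept in replicate 1, 402 shared no base with any peak kept in replicate 2, or 38.2% (exact Clopper-Pearson 95% interval 35.2 to 41.2%). Of those kept in replicate 2, 399 shared no base with any kept in replicate 1 (37.9%, 35 to 40.9%). The sets hold 801 of the 60000 relaxed peaks. The other 651 and 654 peaks kept overlapped each other and are called shared, so the peaks kept in a replicate are its members and its shared peaks together. The weakest peak kept had a signal of 70.6 in replicate 1 and 63.6 in replicate 2, and the first peak left out had the same value to this precision in each list. Because the split was made on the signal, the ranks given below are a description without a test.

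The worms were whole L4 larvae of mixed sex, the last larval stage before the adult. Strain OP589 carries the allele unc-119(tm4063) and the transgene wgIs589, which holds gei-8 fused to TY1, EGFP and 3xFLAG tags and a wild-type unc-119(+) copy that marks transgenic animals. The larvae were starved at the L1 stage after bleaching and then grown for 48 hours. Chromatin was sonicated, precipitated with an anti-GFP antibody and sequenced, and both replicates belong to 1 group. The material is a transgenic line and a pool of whole animals, so a site is an average over tissues, and no untagged strain, mutant or other stage was analysed here. With peak lists and no read counts, the depth of each library is unknown, and all intervals cover counting error only. The signal of a peak is the authors' own value. It was compared between replicates only through its rank or relative to the last peak kept in the same list. Coordinates are those of ce11 (WBcel235).

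GEI-8 belongs to the family of the vertebrate corepressors NCoR and SMRT, large proteins that do not read DNA themselves but are brought to it by nuclear receptors and other transcription factors, and that work with histone deacetylases. The genes for transfer RNAs, which recur below, are short and are transcribed by RNA polymerase III from promoter elements inside the gene, the A box and the B box. The B box is the element that the factor TFIIIC holds. It was searched here as the letters GTTCNANNC on both strands.

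The DNA under the strongest peak of each set, and under the strongest peak of each set near a tRNA gene, is shown as single examples. Of all members, 58% of replicate 1 only and 56.9% of replicate 2 only lay outside tRNA, snoRNA and promoter windows. Each run is centred on the summit and comes from the RefSeq sequence of WBcel235. Capitals mark matches on either strand. They are to the B box letters, to the GATA factor site TGATAA, to the E box CACGTG or to the repeat GAGAGA. A run without capitals holds no match to these in this stretch. Matches to the other motifs counted further below are not marked, such as AGGTCA in the tRNA-Phe run. The strongest peak of replicate 1 only, ranked 95 there and 1927 in replicate 2, lay 25 bp upstream of the snoRNA gene F30H5.4 (chrIII:502719-502839, plus strand), and its sequence holds a match to the B box letters. The strongest peak of replicate 2 only, ranked 52 there and with no peak over it in replicate 1, lay in intergenic DNA whose nearest protein-coding start is that of irld-18 (chrIV:14594369-14594489, plus strand), and it holds 2 GATA-type matches to TGATAA. The strongest peaks near tRNA genes were at a serine tRNA gene for replicate 1 only (chrV:15547891-15548011, minus strand) and at a phenylalanine tRNA gene for replicate 2 only (chrV:19125989-19126109, plus strand). The shared peaks are represented by an intergenic site 5000 bp upstream of bcat-1, an enzyme gene for the breakdown of branched-chain amino acids (chrX:12872420-12872540, plus strand), ranked 3 and 2. They are also represented by the strongest shared peak with a tRNA gene within 1000 bp, in pxn-1 (chrV:8500492-8500612, minus strand), ranked 1 and 7. Its label below names that lysine tRNA gene, but its summit lay 27 bp upstream of the snoRNA gene ZK994.7.
Replicate 1 only, snoRNA site near F30H5.3: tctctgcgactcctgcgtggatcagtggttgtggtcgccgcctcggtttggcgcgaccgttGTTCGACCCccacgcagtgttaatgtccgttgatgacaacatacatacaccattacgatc
Replicate 1 only, tRNA-Ser site: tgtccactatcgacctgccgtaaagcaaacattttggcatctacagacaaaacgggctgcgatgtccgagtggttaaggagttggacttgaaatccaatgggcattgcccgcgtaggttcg
Replicate 2 only, site near irld-18: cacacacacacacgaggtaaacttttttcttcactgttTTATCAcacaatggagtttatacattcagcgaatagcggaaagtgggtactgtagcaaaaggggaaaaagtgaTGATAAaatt
Replicate 2 only, tRNA-Phe site: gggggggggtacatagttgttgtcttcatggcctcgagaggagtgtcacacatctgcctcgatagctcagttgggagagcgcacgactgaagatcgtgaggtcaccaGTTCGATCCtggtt
Shared, site upstream of bcat-1: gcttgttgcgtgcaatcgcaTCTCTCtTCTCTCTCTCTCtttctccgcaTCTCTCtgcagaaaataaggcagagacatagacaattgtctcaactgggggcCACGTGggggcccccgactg
Shared, tRNA-Lys site in pxn-1: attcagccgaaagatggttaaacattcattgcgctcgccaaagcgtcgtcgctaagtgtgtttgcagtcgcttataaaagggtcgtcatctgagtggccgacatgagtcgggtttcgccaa

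Single-replicate peaks were mostly the weaker of the strong peaks, and the other replicate usually had a peak at the same place below the limit. Only 1 of the 100 strongest peaks of replicate 1 was strong in replicate 1 alone, and 1 of the next 100. In replicate 2 the counts were 2 and 9. The share rose to 67.0% (interval 61.8 to 71.9%) of the 351 weakest peaks kept in replicate 1 and 63.2% (58.0 to 68.3%) of those in replicate 2. Members had a median rank of 758 in replicate 1 and 740 in replicate 2, against 355 and 370.5 for shared peaks.

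**Figure D1:**
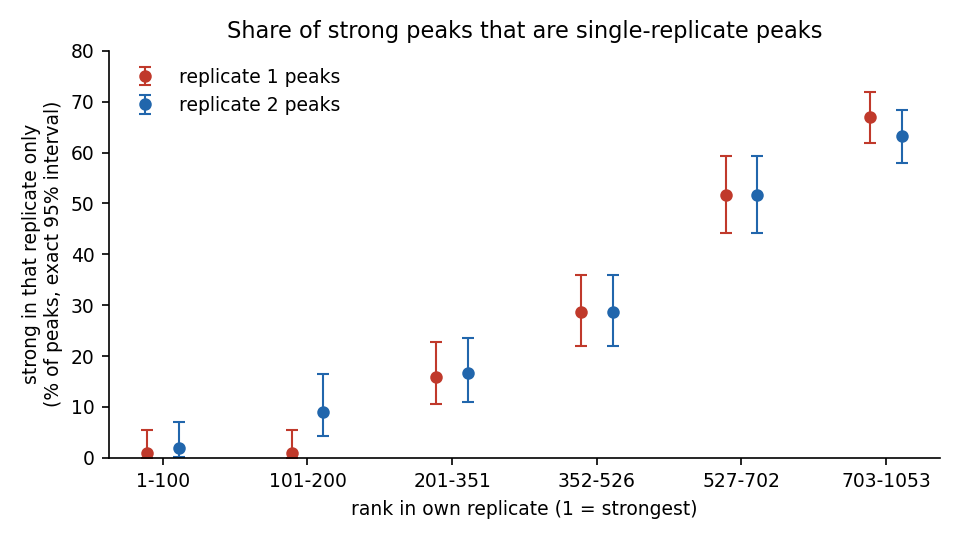
Share of the strong peaks that were strong in that replicate only (vertical axis, percent of peaks) by rank in their own replicate (horizontal axis), for replicate 1 (red) and replicate 2 (blue), with exact 95% intervals. The share stands at 1 to 2% among the 100 strongest peaks and at 67.0% and 63.2% among the 351 weakest.

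In the full list of the other replicate, 380 of the 402 peaks of replicate 1 only had an overlapping peak, at a median rank of 2509.5 (quartiles 1549 and 5761). For replicate 2 only, 377 of 399 had a peak in replicate 1, at a median rank of 2603 (quartiles 1553 and 5429). The strongest overlapping peak was counted in each case. It stood among the ranks just below the limit, as many again as were kept, for 163 members of replicate 1 only (40.5%, interval 35.7 to 45.5%) and for 147 of replicate 2 only (36.8%, 32.1 to 41.8%). It stood beyond rank 10000 for 50 (12.4%) and 46 members (11.5%). Each full list holds 30000 peaks, so a peak at a deep rank may overlap a member by position alone. The share of such overlaps was not measured. Each of these pairs of intervals overlaps, which does not establish that the sets are alike, and no test was made between them. Relative to the last peak kept in the same list, the median member of replicate 1 only was 0.16 higher on the log2 signal scale in replicate 1 and 0.40 lower in replicate 2 (a log2 difference of -0.40). For replicate 2 only the median values were 0.17 and -0.39. The lowest values in the other replicate were -1.70 for replicate 1 only and -1.60 for replicate 2 only. These values in the other replicate leave out the 22 members of each set with no overlapping peak.

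**Figure D2:**
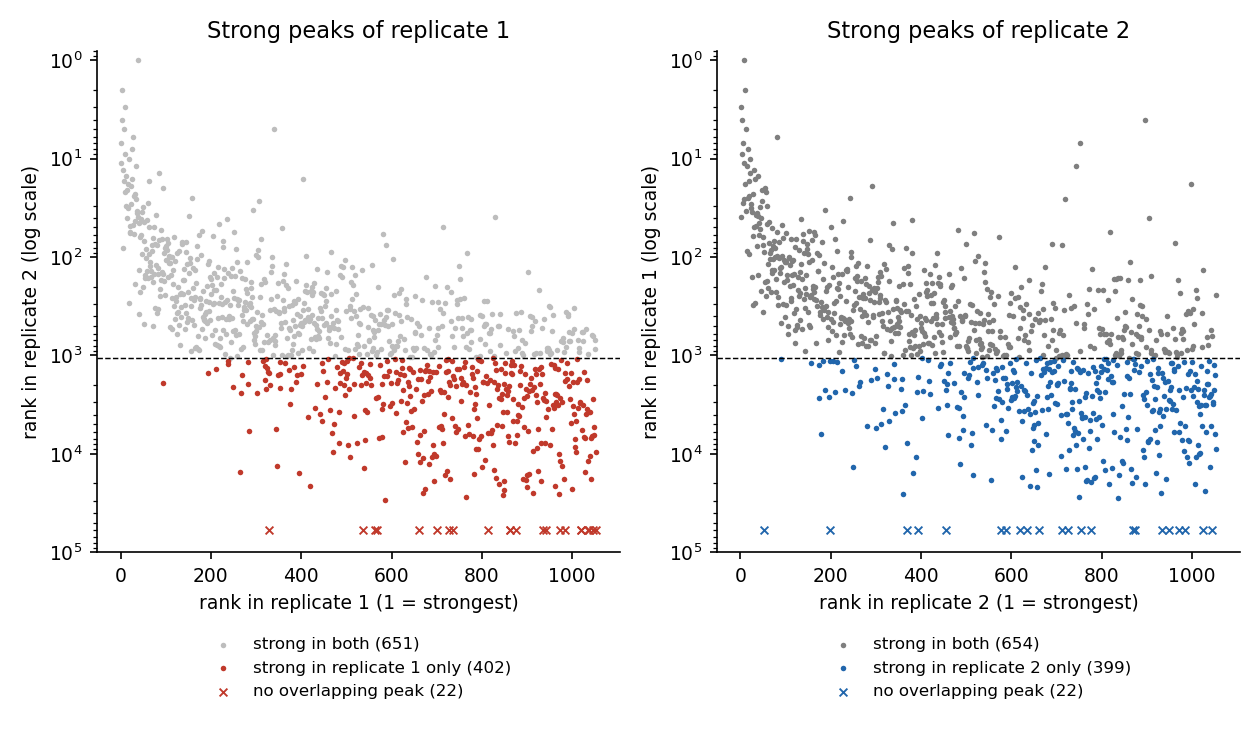
Rank of every strong peak in its own replicate (horizontal axis) against the rank of the strongest overlapping peak in the other replicate (vertical axis, log scale, strongest at the top), for replicate 1 at left and replicate 2 at right. Grey points are shared peaks, coloured points are single-replicate peaks, crosses are the 22 members of each set with no overlapping peak, and the dashed line is the last rank kept, so the position of the coloured points below it is fixed by the rule.

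The strongest peak of replicate 1 only (III, 502551 to 503006, signal 149.9) is the snoRNA site shown above, ranked 95 and 1927. It was followed by an intergenic site near T28H10.2 (V, 12509941 to 12510396, ranked 194 and 1504) and by a site 230 bp upstream of dmd-7, a DM domain transcription factor gene (V, 6246473 to 6246928, ranked 212 and 1366), whose summit lay inside an annotated ncRNA gene. All 10 strongest members had a peak in replicate 2, and 9 of them stood between ranks 1127 and 2403 there. Next in order came a site in an intron of Y45G5AM.9, 3161 bp downstream of the start of nhr-114, a nuclear hormone receptor gene in which it does not lie (V, 4190135 to 4190590, ranked 238 and 1225). A site 825 bp upstream of C32D5.8 followed (II, 6346561 to 6347016, ranked 239 and 1127). The sixth was in a coding exon of best-18 near cts-1, the citrate synthase gene (III, 10214419 to 10214874, ranked 249 and 2094). Copies in the genome were counted for short words of each summit window, of the length given below for tRNA genes. The most frequent word had 108 copies at the T28H10.2 site and 208 at the Y45G5AM.9 site. It had 8 and 19 at the serine and arginine tRNA sites given next, and 1 at the rest of these 10. Whether such copies affected the placing of these peaks was not tested.

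The seventh, 25 bp upstream of the snoRNA gene F12F6.11 near M04B2.7 (IV, 11549661 to 11550116), was ranked 265 in replicate 1 and 15146 in replicate 2, the lowest rank among these 10. The others were the promoter of sms-3, a sphingomyelin synthase gene (III, 1601379 to 1601834, ranked 266 and 2403), the serine tRNA gene shown above, whose nearest protein-coding start is that of glb-14, a globin gene (ranked 270 and 1572), and an arginine tRNA gene inside unc-58, a potassium channel gene (X, 10132459 to 10132914, ranked 282 and 1176). By kind, 2 of the 10 lay at snoRNA genes, 2 at tRNA genes and 3 in the promoter window of a protein-coding gene without either.

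Among the 10 strongest peaks of replicate 2 only, 4 lay in a promoter window and none had a tRNA or snoRNA gene start within 1000 bp. The peak near irld-18, a gene of the insulin and EGF receptor L domain family (IV, 14594204 to 14594653, signal 159), ranked 52 in replicate 2, and it had no overlapping peak in replicate 1 or in the list called on both replicates pooled. The nearest summit of replicate 1 was 15571 bp away. The next was an intergenic peak 1334 bp downstream of the start of mxl-3, a bHLH transcription factor gene in which it does not lie (X, 13349245 to 13349694), ranked 91 in replicate 2 and, just below the limit, 1093 in replicate 1.

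In the order of their ranks in replicate 2 they continued with an antisense RNA gene inside vhp-1, which encodes a MAP kinase phosphatase (II, 5330086 to 5330535, ranked 156, and 1188 in replicate 1), and an intergenic site near T19C3.4 (III, 623742 to 624191, ranked 173 and 1251). Then came an intron of W06H8.6 (V, 6224433 to 6224882, ranked 175 and 2722) and the promoter of ikke-1, a gene of the IκB kinase family (III, 9050985 to 9051434, ranked 178 and 6277). The promoter of met-1, an H3K36 methyltransferase gene (I, 4253810 to 4254259), ranked 184 and 1143. Promoter sites of T21D12.7 (IV, 291781 to 292230, ranked 187 and 2257) and of cebp-1, a C/EBP-family transcription factor gene (X, 1454342 to 1454791, ranked 198 and 1135), and an intergenic site near F20B6.9 (X, 4209039 to 4209488, ranked 197 and 2645) complete the 10. Of the 10, 9 had a peak in replicate 1.

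Each set held 22 members with no overlapping peak anywhere among the 30000 of the other replicate (5.47%, interval 3.46 to 8.17%, and 5.51%, 3.49 to 8.23%). The strongest of replicate 1 only lay in a coding exon of W09D6.5 (III, 11090144 to 11090599, ranked 329), 151 bp from the start of an snRNA gene of the spliced leader family, sls-2.14. The others in order were near F43E12.1 (X, 7181587 to 7182042, ranked 537), 47 bp upstream of wts-1, the Warts kinase gene of the Hippo pathway (I, 10297746 to 10298201, ranked 563), near H06I04.3 (III, 3069233 to 3069688, ranked 568) and in an intron of lfi-1 (X, 4982006 to 4982461, ranked 660). Those of replicate 2 only were the irld-18 site, the phenylalanine tRNA gene near bed-1 (V, 19125824 to 19126273, ranked 199), and the promoters of wbp-4 (I, 11374256 to 11374705, ranked 368), ymel-1, a mitochondrial protease gene (III, 10415709 to 10416158, ranked 394), and gsy-1, the glycogen synthase gene (II, 12878680 to 12879129, ranked 456). The most frequent short word of the summit window had 2363 copies in the genome at the lfi-1 site. At the other sites named here it had at most 2. Whether the copies affected the placing of the lfi-1 peak or its lack of a partner was not tested.

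Some members stood in long stretches without any peak of the other replicate. For 7 members of replicate 2 only (1.75%, interval 0.708 to 3.58%) replicate 1 had no summit within 10000 bp on either side. For replicate 1 only the count was 0 of 402, which allows a share of up to 0.746% when a count of 0 is taken to allow 3, or 0.913% by the exact interval. The exact intervals of the sets overlap. The 7 sites were those near irld-18, bed-1 and wbp-4, the promoter of fbxb-85, an F-box gene (III, 10848792 to 10849241, ranked 578), an intron of Y57G11C.22 (IV, 14838124 to 14838573, ranked 588), and sites near Y105C5A.1 (IV, 15570726 to 15571175, ranked 635) and C08E8.3 (V, 18346046 to 18346495, ranked 985). Of these, 5 had no pooled summit within 10000 bp either. In replicate 2 itself, 4 of them (irld-18, bed-1, fbxb-85 and Y57G11C.22) were the only peak within 10000 bp. In all, 10 members of replicate 2 only and 1 of replicate 1 only had no overlapping peak in the pooled list. The files hold no reads with which to look into these stretches.

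**Figure D3:**
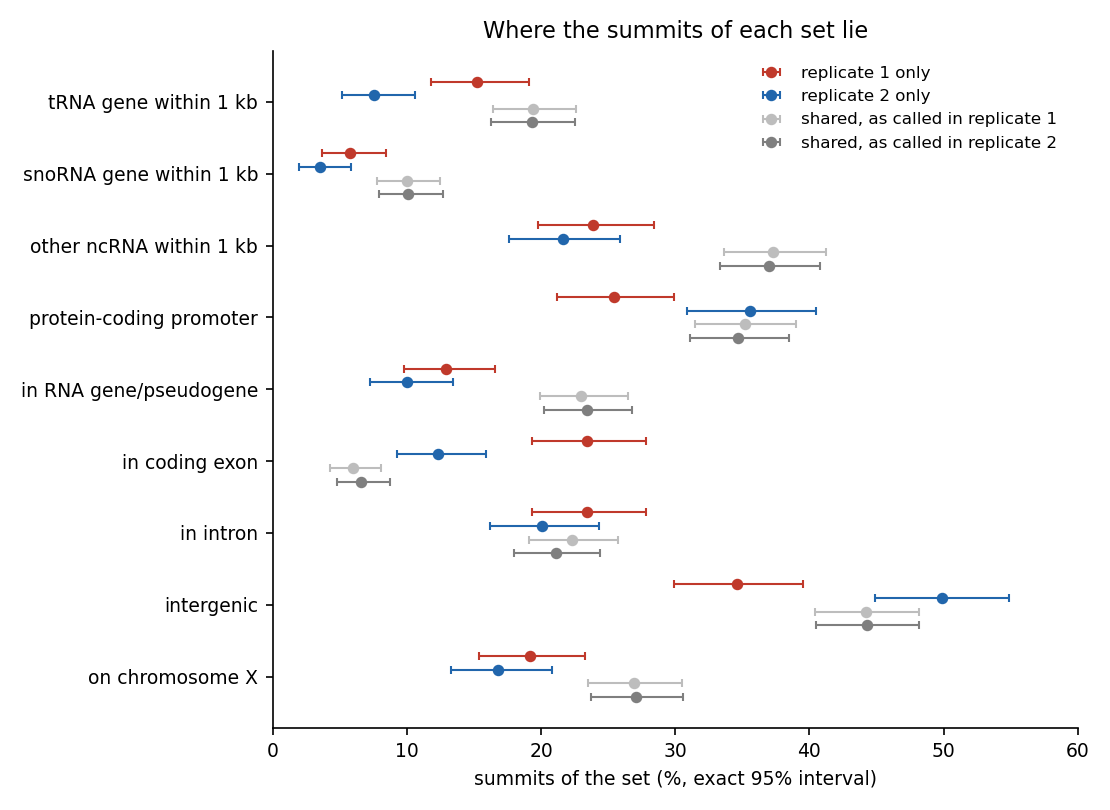
Share of summits (horizontal axis, percent, with exact 95% intervals) at each kind of place for the 402 peaks of replicate 1 only (red), the 399 of replicate 2 only (blue) and the shared peaks as called in replicate 1 (651, light grey) and replicate 2 (654, dark grey). Replicate 1 only has the highest share in coding exons, 23.4%, replicate 2 only has the lowest share near tRNA genes, 7.52%, and both have lower shares near ncRNA genes and on chromosome X than shared peaks.

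At RNA genes some shares differed between the sets or from shared peaks, and the pattern differed by class. A tRNA gene start lay within 1000 bp of 61 summits of replicate 1 only (15.2%, interval 11.8 to 19.1%) and of 30 summits of replicate 2 only (7.52%, 5.13 to 10.6%). For shared peaks the share was 19.4% (16.4 to 22.6%), and windows of this size cover 0.995% of the nuclear genome. The interval of replicate 2 only overlaps neither of the others, which overlap each other. In the weaker 50% of ranks kept, the shares were 13.5% (9.98 to 17.7%), 7.67% (4.97 to 11.2%) and 16.9% (12 to 22.8%), so the intervals of the sets overlap each other there and that of replicate 2 only lies below that of shared peaks. Seen from the peaks, 61 of the 187 strong tRNA peaks of replicate 1 were strong there only (32.6%, 26 to 39.8%), against 30 of the 156 of replicate 2 (19.2%, 13.4 to 26.3%).

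The tRNA peaks of each set sat on the genes themselves. The median summit was 37 bp downstream of the tRNA start in replicate 1 only and 24.5 bp in replicate 2 only, against 28 bp for shared peaks. Within 200 bp of the start were 54 of 61 (88.5%, 77.8 to 95.3%), 30 of 30 (88.4 to 100%) and 123 of 126 (97.6%, 93.2 to 99.5%). The B box letters were found in the 201 bp around the summit in 48 of 61 (78.7%, 66.3 to 88.1%), 27 of 30 (90.0%, 73.5 to 97.9%) and 114 of 126 (90.5%, 84.0 to 95%). Chromosome X held 25 of the 61 (41%, 28.6 to 54.3%), 15 of the 30 (50%, 31.3 to 68.7%) and 62 of the 126 (49.2%, 40.2 to 58.3%). Positions, B boxes and chromosome X shares therefore had overlapping intervals in the 3 sets.

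Counted by gene, 70 of 612 tRNA genes had a summit of replicate 1 only in the window from 1000 bp upstream to 200 bp downstream, 34 had a summit of replicate 2 only and 148 a shared one, called in either replicate. With replicate 1 only, alanine tRNA genes were the most numerous (7 of 34), followed by those for arginine (6 of 44), leucine (6 of 39) and lysine (6 of 46). With replicate 2 only they were those for glutamate (6 of 41) and threonine (4 of 34). Cysteine tRNA genes were few but often listed, with 5 of 13 in replicate 1 only, 1 in replicate 2 only and 6 among shared peaks. Many tRNA genes have near-identical copies, and a 32-base word of the summit window occurred more than once in the genome for 20.4% (16.6 to 24.7%) of replicate 1 only, 12% (9 to 15.6%) of replicate 2 only and 24.6% (21.3 to 28.1%) of shared peaks. The part of such repeats in the tRNA shares was not tested.

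Summits near snoRNA, snRNA and other ncRNA genes made up lower shares of the sets than of shared peaks, which are stronger peaks. A snoRNA gene, of the class that guides the modification of ribosomal RNA, lay within 1000 bp of 5.72% of summits in replicate 1 only (3.66 to 8.46%), 3.51% in replicate 2 only (1.93 to 5.82%) and 9.98% at shared peaks (7.79 to 12.5%). For other ncRNA genes the shares were 23.9% (19.8 to 28.4%), 21.6% (17.6 to 25.9%) and 37.3% (33.6 to 41.2%). For snRNA genes, which serve splicing, they were 0.746% (0.154 to 2.17%), 0.251% (0.00635 to 1.39%) and 2.76% (1.65 to 4.33%). For each of the 3 classes the intervals of the single-replicate sets overlap each other. Both lie below that of shared peaks for ncRNA genes, and only that of replicate 2 only does for snoRNA and snRNA genes. In the weaker 50% of ranks kept, snoRNA shares were 4.91% (2.83 to 7.85%) and 3.51% (1.77 to 6.20%) in the sets. At shared peaks they were 3.98% (1.73 to 7.69%) as called in replicate 1 and 7.94% (4.70 to 12.4%) as called in replicate 2. The share of replicate 2 only stayed below the latter, and all these intervals overlap. For snRNA genes the shares there were 0.613% (0.0744 to 2.2%) and 0.319% (0.00809 to 1.77%, 1 summit) in the sets. Shared peaks had 2.49% (0.813 to 5.71%) and 1.4% (0.29 to 4.04%) as called in replicates 1 and 2, with intervals that all overlap. For ncRNA genes the shares were 21.8% (17.4 to 26.7%) and 22% (17.6 to 27.1%) in the sets. At shared peaks as called in replicates 1 and 2 they were 31.3% (25 to 38.2%) and 34.6% (28.2 to 41.4%). Both sets overlap the first of these intervals and lie below the second. For miRNA genes the counts were 7, 3 and 10 summits, with intervals that all overlap. Near lincRNA genes the shares were higher in the sets, 1.49% (0.55 to 3.22%) and 1.75% (0.708 to 3.58%). Shared peaks as called in replicate 1 had 0.922% (0.339 to 2%), and these intervals overlap too. The strongest miRNA peaks of the sets were at mir-2214 in B0361.11 (III, 7278509 to 7278964, 22 bp from the start, ranked 284 in replicate 1 and 5897 in replicate 2) and at mir-90 in an intron of K01F9.2 (III, 8874001 to 8874450, 142 bp upstream, ranked 543 in replicate 2 and 1410 in replicate 1). The strongest lincRNA peaks were at linc-91, in the promoter of chd-7, a chromatin remodeller gene (I, 4699305 to 4699760, ranked 480 and 1303), and at M04F3.7, in the promoter of rpa-2, a replication protein A gene (I, 4769466 to 4769915, ranked 329 in replicate 2 and 4621 in replicate 1).

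Promoters of protein-coding genes, taken as 1000 bp upstream to 200 bp downstream of the annotated start, held fewer summits of replicate 1 only. The share was 25.4% (21.2 to 29.9%) there, 35.6% (30.9 to 40.5%) in replicate 2 only and 35.2% (31.5 to 39.0%) for shared peaks, and such windows cover 21.5% of the nuclear genome. The interval of replicate 1 only lies below both others. In the weaker 50% of ranks kept, its share of 24.8% (20.2 to 29.9%) has an interval that overlaps that of replicate 2 only (32.6%, 27.4 to 38.1%) and of shared peaks as called in replicate 2 (34.1%, 27.8 to 40.9%), and lies below that of shared peaks as called in replicate 1 (39.3%, 32.5 to 46.4%). Among promoter peaks without a tRNA or snoRNA gene nearby, the median summit was 197 bp upstream of the start in replicate 1 only (-197 bp), at -191 bp in replicate 2 only and at -242 bp for shared peaks. Within 200 bp of the start were 43.7% (33.1 to 54.7%), 50% (41 to 59.0%) and 36.4% (29.3 to 43.9%).

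The promoter windows with a summit of replicate 1 only belonged to 110 of 19973 protein-coding genes (0.551%), those of replicate 2 only to 166 (0.831%) and those of shared peaks as called in replicate 1 to 261 (1.31%). Among 25 gene lists, most held a few such genes. Ribosomal protein genes had 10 of 81 at shared peaks, 4 at replicate 2 only and 1 at replicate 1 only. The 3 strongest of replicate 2 only were rpl-12 (IV, 13240471 to 13240920, summit 45 bp upstream, ranked 523 and 1853 in replicate 1), rpl-6 (III, 7207860 to 7208309, 362 bp upstream and 528 bp upstream of a snoRNA gene, ranked 590 and 2210) and rpl-11.2 (X, 2242762 to 2243211, 369 bp upstream, ranked 753 and 1468). The 1 gene of replicate 1 only was rpl-24.2 (I, 9669032 to 9669487, 155 bp upstream, ranked 764, and 27471 in replicate 2).

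Histone genes had 5 of 81 at replicate 2 only, 2 at shared peaks and 1 at replicate 1 only. They included his-37, an H4 gene (V, 9546835 to 9547284, 45 bp upstream, ranked 494 and 2620 in replicate 1), his-72, a replacement H3 gene (III, 12368766 to 12369215, 59 bp downstream and near a snoRNA gene, ranked 544 and 5135), and his-48, an H2B gene (IV, 11323533 to 11323982, 987 bp upstream, ranked 727 and 9149). The histone peak of replicate 1 only was at his-59 (IV, 7487353 to 7487808, 668 bp upstream, ranked 827, and 1862 in replicate 2). Against the background shares of 0.831% and 0.551%, the histone list stood at 6.17% for replicate 2 only and 1.23% for replicate 1 only, with neighbouring genes of a cluster able to share a summit.

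Genes for corepressors, deacetylases and the DREAM repressor complex had 4 of 58 at replicate 2 only, 3 at shared peaks and 2 at replicate 1 only. The last were mep-1, a zinc finger gene of the NuRD-related MEC complex (IV, 11523766 to 11524221, 648 bp upstream, ranked 395, and 15780 in replicate 2), and lin-13, a zinc finger gene of the synMuv group (III, 7709800 to 7710255, 537 bp upstream, ranked 1031 and 3972). The lin-13 gene also had a peak of replicate 1 only in a coding exon (III, 7701808 to 7702263, ranked 632 and 4778). Those of replicate 2 only were led by met-1, by lin-54, a DNA-binding DREAM subunit gene that shares the rpl-12 peak (348 bp upstream), and by lin-53, which encodes the histone chaperone relative of RbAp48 (I, 9619756 to 9620205, summit at 221 bp upstream, ranked 568 and 1409 in replicate 1).

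In other lists the counts were small, beside shares over all genes of 0.551% for replicate 1 only, 0.831% for replicate 2 only and 1.31% for shared peaks. Chaperone genes had 8 of 62 at shared peaks and 1 at replicate 2 only, dnj-12 (I, 14756558 to 14757007, ranked 785, and 17267 in replicate 1). Respiratory chain genes had 4 of 47, and nuclear hormone receptors 7 of 274, at shared peaks. In each single-replicate set 1 receptor was found (0.365% of the list), which is below the share over all genes. They were nhr-105 of replicate 1 only (IV, 7049660 to 7050115, 268 bp upstream, ranked 790 and 4360) and nhr-256 of replicate 2 only (V, 1743401 to 1743850, 145 bp upstream, ranked 936 and 1700). Heterochronic genes, the timers of larval development, had 4 of 19 at shared peaks and 1 (5.26%) in each single-replicate set, lin-66 (IV, 13887462 to 13887917, ranked 799 and 1146) and mab-10 (II, 10527745 to 10528194, ranked 809 in replicate 2 and 1076 in replicate 1), both close to the limit in the other replicate.

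Cuticle collagen genes had 3 of 175 at replicate 2 only and 0 at shared peaks. The 3 were the neighbours col-159 and col-160, which share a peak (V, 13202246 to 13202695, ranked 473 and 1916), and col-185 (X, 13511800 to 13512249, ranked 483 and 3449), whose summit lay 16 bp from a tRNA start. The yolk protein genes vit-5 (X, 3403206 to 3403655, 40 bp upstream, ranked 659 and 4809) and vit-6 (IV, 8260931 to 8261380, 1 bp upstream, ranked 789 and 7076) had peaks of replicate 2 only. The elongation factor gene eef-2 (I, 9163312 to 9163761, 6 bp downstream, ranked 686 and 1163) and iff-2, a gene of the eIF5A family (II, 8561187 to 8561636, 45 bp upstream and near a snoRNA gene, ranked 251 and 1117), did too. With so few genes per list, the counts are a description of these peaks.

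Coding exons were the place where replicate 1 only stood furthest from the rest. Of its summits, 94 (23.4%, 19.3 to 27.8%) lay in a coding exon, against 49 (12.3%, 9.23 to 15.9%) of replicate 2 only and 5.99% (4.29 to 8.10%) of shared peaks as called in replicate 1 (6.57%, 4.80 to 8.75%, as called in replicate 2). Coding exons make up 24.5% of nuclear bases. The 3 intervals do not overlap. Of all strong peaks of replicate 1 with a summit in a coding exon, 70.7% (62.2 to 78.2%) were strong in replicate 1 only, the highest share among the 6 kinds of place, and 53.3% (42.6 to 63.7%) of those of replicate 2 were strong in replicate 2 only. Intergenic summits were fewest in replicate 1 only, with 34.6% (29.9 to 39.5%) in replicate 1 only, 49.9% (44.9 to 54.9%) in replicate 2 only and 44.2% (40.4 to 48.2%) at shared peaks, and the intervals of replicate 2 only and shared peaks overlap. Introns held 23.4%, 20.1% and 22.3%, with overlapping intervals.

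The genes whose exons carried these peaks were named after their values were seen. In replicate 1 only there were 2 overlapping peaks in ahcy-1, the S-adenosylhomocysteine hydrolase gene (I, 6836623 to 6837078 and 6836822 to 6837277, ranked 459 and 607, both over the replicate 2 peak of rank 1077). Others were in vha-3, a subunit gene of the vacuolar proton pump (IV, 2315513 to 2315968, ranked 580 and 6671), in mdh-1, a malate dehydrogenase gene (V, 6515997 to 6516452, ranked 634 and 3059), and in icl-1, the glyoxylate cycle gene (V, 724856 to 725311, ranked 698 and 10421). Further ones were in cut-2, a cuticlin gene (V, 13415518 to 13415973, ranked 486 and 1886), in the collagen genes col-129 (IV, 12109117 to 12109572, ranked 624 and 1338) and col-120 (IV, 9260789 to 9261244, ranked 629 and 12047), and in par-1, a polarity kinase gene (V, 14120635 to 14121090, ranked 586 and 29714). For replicate 2 only they included col-140, the ribosomal protein genes rpl-16, rpl-7 and rps-2, eef-1A.1, a translation elongation factor gene, act-5, an actin gene of the intestine, and asp-3, an aspartyl protease gene. Their ranks in the other replicate ran from 3155 (asp-3) to 18170 (rps-2).

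Peak strength moves with this pattern, since coding exon summits are more frequent among weaker peaks. In the weaker 50% of the ranks kept, the shares were 26.1% (21.4 to 31.2%) in replicate 1 only, 14.7% (11 to 19.1%) in replicate 2 only, and 8.96% (5.39 to 13.8%) and 12.6% (8.48 to 17.8%) at shared peaks as called in replicates 1 and 2. In these ranks replicate 1 only still lay above the other 3 values, while the interval of replicate 2 only overlapped those of shared peaks. Among peaks that the rule did not use, those in the ranks just below the limit and as many again, the peaks that overlapped nothing in the other list down to the same rank had coding exon summits in 35.2% of cases in replicate 1 (31.6 to 38.9%) and 25.5% in replicate 2 (22.3 to 29.0%). Promoter summits stood at 18.5% (15.6 to 21.6%) and 30.5% (27 to 34.1%) in those ranks, and tRNA summits at 4.51% (3.08 to 6.33%) and 3.45% (2.20 to 5.14%). The order of the replicates was thus the same a tier lower for exons and promoters, and the tRNA intervals overlapped there.

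The same order ran through the whole lists. Over all 30000 peaks, 36.7% of replicate 1 summits and 32% of replicate 2 summits lay in coding exons, and the median GC content of the 201 bp around a summit was 40.8% and 39.8%. Among members the median GC content was 44.8% in replicate 1 only (quartiles 40.3 and 48.8%) and 41.3% in replicate 2 only (37.8 and 46.3%), against 46.8% at shared peaks as called in replicate 1. With coding exon summits left out it was 44.5% and 41.3%. Within each list GC content and exon share ran opposite ways, since GC content fell from 45.8 to 40.3% in replicate 1 and from 44.3 to 39.3% in replicate 2 between the first and last rank ranges while the exon share went up.

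**Figure D4:**
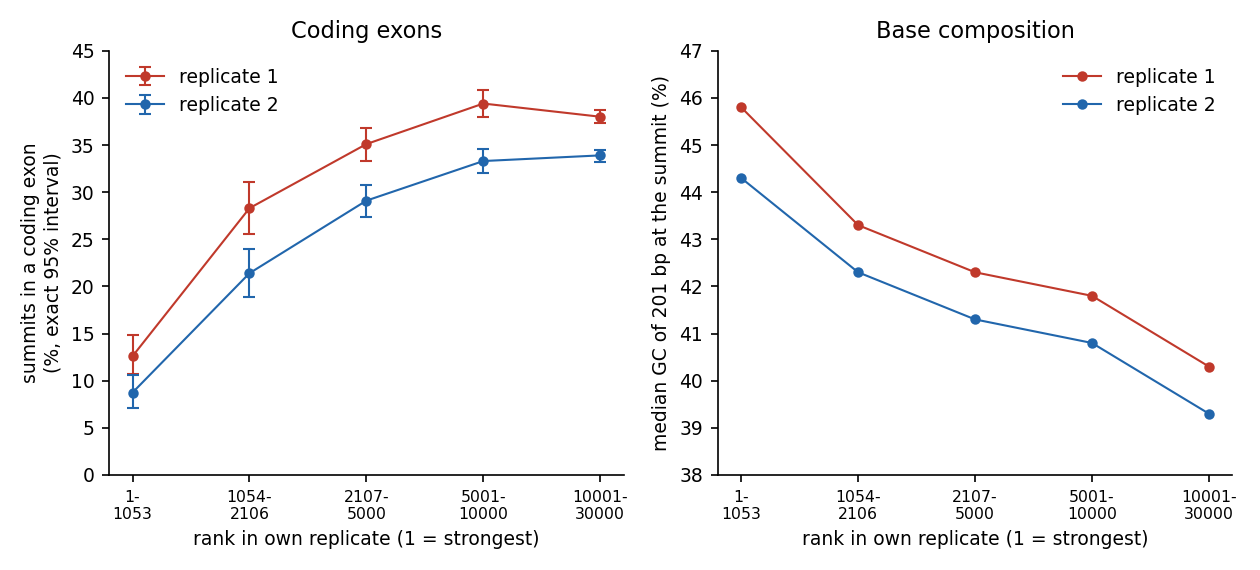
Share of summits in a coding exon (left, percent with exact 95% intervals) and median GC content of the 201 bp around the summit (right, percent, axis from 38 to 47) by rank in the full list of 30000 peaks, for replicate 1 (red) and replicate 2 (blue). In both panels replicate 1 lies above replicate 2 in every rank range, and the exon share rises from 12.6% and 8.74% among the peaks kept to 38% and 33.9% in the last range.

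Short motifs were counted in the 201 bp around each summit on both strands. The B box letters GTTCNANNC occurred in 20.4% (16.6 to 24.7%) of replicate 1 only, 11% (8.13 to 14.5%) of replicate 2 only and 26% (22.6 to 29.5%) of shared peaks, against 9.36% and 9.21% of all peaks of replicates 1 and 2. TGATAA, the letters of a GATA factor site, occurred in 18.9% (15.2 to 23.1%), 25.8% (21.6 to 30.4%) and 15.7% (13 to 18.7%), against 16.6% and 16.9% of all peaks. Its interval in replicate 2 only lies above that of shared peaks and overlaps that of replicate 1 only. In the weaker 50% of ranks kept, it was 25.6% (20.8 to 30.8%) in replicate 2 only. At shared peaks it was 16.9% (12 to 22.8%) as called in replicate 1 and 18.7% (13.7 to 24.6%) as called in replicate 2. The interval of replicate 2 only overlaps both. Runs of T, searched as TTTTTTT, had shares of 18.2% (14.5 to 22.3%), 26.6% (22.3 to 31.2%) and 16.9% (14.1 to 20%), against 20.2% and 25.3% of all peaks, so the difference between the sets was also present between the whole lists. GAGAGA had 26.9% (22.6 to 31.5%), 31.3% (26.8 to 36.1%) and 38.7% (34.9 to 42.6%), and its share in all peaks was 16.1% in each list. CACGTG, the E box of many bHLH factors, had 9.20% (6.56 to 12.5%), 10% (7.26 to 13.4%) and 15.7% (13 to 18.7%), against 5.56% and 5.75% of all peaks. The interval of replicate 1 only lies below that of shared peaks as called in replicate 1 for both motifs, and that of replicate 2 only overlaps it. Against shared peaks as called in replicate 2, at 40.7% (36.9 to 44.5%) for GAGAGA and 14.7% (12.1 to 17.6%) for CACGTG, both sets lie below for GAGAGA and both overlap for CACGTG. In the weaker 50% of ranks kept, the intervals of each set overlap those of shared peaks for GAGAGA, and for CACGTG at shared peaks as called in replicate 1 the share is 16.9% (12 to 22.8%), against 9.20% (6.30 to 12.9%) and 8.95% (6.03 to 12.7%), which overlap it. AGGTCA, the nuclear receptor half-site, had 6.97%, 7.27% and 5.22%, and TGANTCA, the AP-1 type letters, 5.47%, 4.01% and 3.84%, with overlapping intervals for each motif.

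By chromosome, X held 19.2% (15.4 to 23.3%) of replicate 1 only and 16.8% (13.3 to 20.8%) of replicate 2 only, close to its 17.7% of nuclear bases, and 26.9% (23.5 to 30.5%) of shared peaks, whose interval lies above both. Within the weaker 50% of ranks kept, the shares were 19.6% (15.5 to 24.4%), 16.3% (12.4 to 20.9%) and 25.4% (19.5 to 32%), with overlapping intervals. The outer 25% at each end of a chromosome held 36.1%, 37.3% and 39.8% of summits, with overlapping intervals. The median distance from a member to the nearest strong summit of the other replicate was 23929.5 bp in replicate 1 only and 17778 bp in replicate 2 only. For 21 members of each set it was at most 1000 bp, as at dmd-7 (839 bp), T21D12.7 (850 bp) and mxl-3 (863 bp). Near mxl-3 lay members of each set, among them the peak of replicate 2 only given above and a peak of replicate 1 only 514 bp upstream of its start (X, 13351090 to 13351545, ranked 573 and 6881). Within their own set, 10 members of replicate 1 only and 6 of replicate 2 only overlapped another member.

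The IDR list, the authors' thresholded set, was made of the strongest peaks of the pooled list. Of replicate 1 only, 192 members overlapped a peak of the IDR list (47.8%, 42.8 to 52.8%), as did 179 of replicate 2 only (44.9%, 39.9 to 49.9%) and 98.9% (97.8 to 99.6%) of shared peaks. Members on that list had a median rank in the other replicate of 1608 and 1584, and members off it of 5249 and 4612. The list also held 1 member of replicate 1 only and 6 of replicate 2 only that had no overlapping peak in the other replicate, among them wbp-4, ymel-1 and gsy-1. At the gei-8 locus, which the transgene duplicates, with 20000 bp on each side, there was 1 member of each set (III, 8106437 to 8106892, ranked 400 in replicate 1, and III, 8126893 to 8127342, ranked 898 in replicate 2) beside 3 shared peaks. Around unc-119, the rescue gene, there were 0 strong peaks.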

How the data were processed

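Chromatin immunoprecipitation with sequencing was analysed from 2 replicates of 1 group. Each deposited list gives peaks with the authors' signal value, used here for ranking, and a −log10 q-value, used as an alternative ranking. Per the labels, coordinates are in ce11 and each list was called against the same 1 control alignment. The peak caller was not given in the sources used here, nor was the aligner. Nearly all peaks are 456 bp (replicate 1) or 450 bp (replicate 2) wide, and width was not used as a measure. The few others include some of the strongest shared peaks, such as the one upstream of bcat-1, which is narrower. Peaks were ranked, overlapped at 1 bp and joined to Ensembl release 115 and the RefSeq WBcel235 genome with Python 3.11.15, numpy 2.4.6, scipy 1.17.1 and pandas 2.3.3; figures used matplotlib 3.10.9. Where annotations overlapped, a summit counted for an RNA gene or pseudogene first, then for a coding exon, a UTR, an intron and intergenic DNA. No test was made between sets, since peaks of a library are not replicates, and the code was tested on simulated lists. The members and gene lists were chosen with earlier results of these data known. Named were the protein-coding gene nearest each of the 10 strongest members, the 5 strongest without a partner, the strongest per RNA class, up to 3 members per gene list, the 5 strongest shared peaks, gei-8 and unc-119. Genes with exon peaks, sites in empty stretches and further peaks of mxl-3 and lin-13 were named after their values were seen.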

Additional observations from a re-analysis of the deposited data

How the results depend on the processing

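Leaving out a replicate was not possible, because each set needs both lists, and no paired analysis was possible because there is 1 group. Of 116 values under the alternatives, 75 stayed within 1.5 times the count or median, or within the interval of the share, and 41 did not. In every alternative run, replicate 1 only had the higher tRNA share (13 of 13) and coding exon share (12 of 12) and the lower promoter share (14 of 14). Ranking by q-value, the other overlap rules, the transgene loci, members near shared peaks, the nearest-summit match, the 200 bp tRNA window and the weaker 50% of ranks (added after the data were seen) moved none of these values, but in the weaker 50% the intervals of the sets overlapped for tRNA and promoter shares. Values are given for replicate 1 only and then replicate 2 only. With the stronger 50% of peaks kept, there were 160 and 163 members, with median ranks in the other replicate of 1001 and 1082, tRNA shares of 22.5% and 12.9%, a promoter share of 43.6% in replicate 2 only, and coding exon shares (added after the data were seen, as in every alternative) of 13.1% and 5.52%. With 2 times as many kept, there were 927 and 918, with median ranks of 6253 and 6229, tRNA shares of 6.26% and 4.14%, a promoter share of 20.4% in replicate 1 only and coding exon shares of 33.1% and 22.4%. Off the IDR list there were 210 and 220, with median ranks of 5249 and 4612, tRNA shares of 8.57% and 4.09%, a promoter share of 30% in replicate 2 only and coding exon shares of 31% and 16.4%. Whole peaks in place of summits gave promoter shares of 30.6% and 41.1% and coding exon shares of 46.5% and 36.3%. The narrower promoter window gave 14.2% and 23.8%, the wider 37.6% and 48.9%. In the ranks just below the limit, as many again as were kept (added after the data were seen) tRNA shares were 4.51% and 3.45%, promoter shares 18.5% and 30.5%, and coding exon shares 35.2% and 25.5%. These alternatives changed the number of ranks, the members kept, the part of the peak used or the window widths. Why the values moved was not tested. No reads were used, so neither depth nor mapping could be examined.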
